A study of Arabidopsis thaliana with 27 samples.

Results

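The samples compared here were Arabidopsis thaliana embryos of the accession Col at the 1-cell stage (1C) and at the 32-cell stage (32C), with 3 RNA-seq libraries a stage. They were chosen by their stage labels, as 6 of the 27 libraries of a series that runs from the egg cell (EC) through zygotes 14 and 24 hours after pollination (Zy14 and Zy24) to these embryos and also holds hybrid zygotes. The 9 libraries of EC, Zy14 and Zy24, also Col, shared the statistical fit and are cited here only as earlier levels, while the hybrids were not used. No mutant, transgene or treatment is named for any of these groups, and all plants grew in a greenhouse in long days (16 h light and 8 h dark) at 22 °C. The labels do not say how many embryos made up a library, whether the suspensor was collected with them, or whether the replicates came from separate plants, so p-values measure the spread between these libraries, which may be technical.

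The first division of the Arabidopsis zygote gives a small apical cell, from which almost the whole embryo derives, and a large basal cell, which forms the suspensor and the uppermost root founder cell. Over the following rounds of division the apical lineage becomes a globular embryo with an outer protoderm, the later epidermis, an inner ground tissue and a vascular precursor, and regions of the future shoot and root. Auxin made in the apical cells and moved by PIN efflux carriers guides much of this patterning, and the protoderm is known for an early cuticle. The comparison therefore bears on which transcripts come and go while these tissues are laid down.

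Expression is given as FPKM, a fragment count corrected for transcript length and library total, with replicates 1, 2 and 3 always in that order. The libraries listed 16637 to 17135 genes above 0 in 1C and 18410 to 19018 in 32C, and their FPKM summed to 818813 to 824326 in 1C and 866289 to 875432 in 32C. Read counts were not analysed here, and the spacing of the lowest FPKM put the depth of 32C at 0.865 times that of 1C. Pearson correlations of log2(FPKM + 1) were 0.951 to 0.976 within 1C, 0.974 to 0.985 within 32C and 0.832 to 0.848 between the stages. Libraries of the same stage differed in 2 sets of genes: mitotic genes were highest in 1C replicate 2, and heat shock genes were highest in 32C replicate 1, with values given beside those results.

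The labels were checked against defining genes. Of the embryo proper genes, WOX2, a homeobox gene of the apical lineage, had 120.02, 90.5 and 101 FPKM in 1C and 82.8, 86.1 and 90.9 in 32C, and ATML1, a regulator of epidermal identity, had 69.8, 75.9 and 66.4 and 81.5, 80.5 and 88.8. Of the suspensor genes, WOX8 had 202, 82.97 and 119.7 in 1C and 151, 116 and 115 in 32C, and WOX9 had 308, 361 and 316 and 151, 152 and 189. WOX2, ATML1, WOX8 and WOX9 were thus present in every library of both stages. PDF1, a further embryo proper gene described below, was at 0 in all 3 libraries of 1C. The embryo proper gene AGO10 rose by the rule given below, a call lost with a pseudocount of 0.1 or without 1C replicate 3. PIN7, a further suspensor gene whose values are given with auxin transport, was listed in every library of both stages and also rose. A bulk library cannot tell fewer cells of a type from less RNA per cell, and this holds for every change below.

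Of 18481 genes tested, 2312 rose and 1575 fell from 1C to 32C, which is 12.5% and 8.52% of the genes tested and 21.0% in either direction. A gene is said to have risen or fallen where limma, run on log2(FPKM + 1), gave an adjusted p below 0.05 together with a log2 change of 1 or more in size. The median change over all tested genes was 0 and the median standard error 0.334. Of the genes that rose, 1174 did so by a log2 change of at least 2 and 122 by at least 5, whereas 449 of those that fell did so by at least 2 and 7 by at least 5. Libraries of the stages did not overlap in 10363 genes, or 56.1% of those tested. This held for 2293 of the 2312 genes that rose and 1542 of the 1575 that fell, so absence of overlap adds little to a call. The rises outnumbered the falls under each scaling tried, with 59.5% of calls higher as deposited and 51.0% to 66.1% after the other scalings. Leaving out 1C replicate 1, 2 or 3 gave 11.2%, 11.9% or 10.7% of genes higher and 8.06%, 7.93% or 7.23% lower, and leaving out 32C replicate 1, 2 or 3 gave 11.1%, 10.3% or 11.2% and 7.32%, 6.92% or 7.20%.

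**Figure D1:**
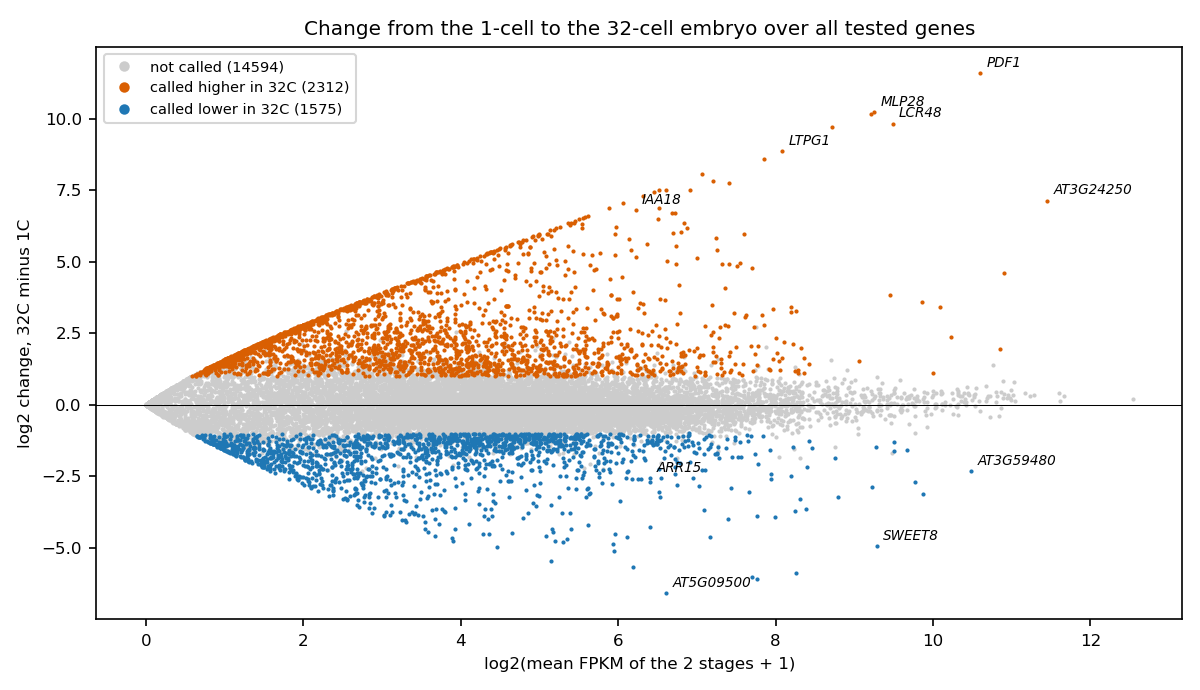
Log2 change from 1C to 32C (vertical axis, on the log2(FPKM + 1) scale) against the log2 mean FPKM of both stages plus 1 (horizontal axis) for each of 18481 tested genes, coloured by call. The straight upper edge holds genes listed at 0 in 1C, whose change is set by the added 1, and the rises reach further from 0 than the falls.

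More genes were detected at the later stage. Genes with FPKM of at least 1 numbered 15056, 15420 and 15277 in 1C and 15741, 15977 and 15771 in 32C, a gain of 579 (exact two-sided permutation p = 0.1, the smallest that 3 against 3 libraries allow). At FPKM of at least 5 there were 12357 ± 128 genes in 1C and 12936 ± 48.2 in 32C (SD, n = 3, exact p = 0.1). By a rule without a test, 354 genes were switched on, under FPKM 1 in every 1C library and at least 5 in every 32C library, and 74 were switched off by the reverse rule, which is 1.71% and 0.358% of the 20670 genes listed in at least 1 of the 6 libraries. All 354 and all 74 were also called, but the calls use the same values and are no separate support for the switches. Of the genes switched on, 233 had no listed value in 1C, 151 reached a mean of at least 20 FPKM in 32C and 16 at least 100. In EC and the zygotes, 163 of the 354 stayed under 1 in all 9 libraries and 91 reached 5 or more in some library, while 64 of the 74 switched off had reached 5 there.

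The 15 largest rises, taken among called genes with a mean of at least 20 FPKM in 32C and no overlap of the stages, included several genes of secreted, lipid-related and cell surface proteins. PDF1, protodermal factor 1, a proline-rich protein of the outer cell layer, was listed at 0 in all 3 libraries of 1C and had 2829.6, 3363 and 3088 FPKM in 32C (adjusted p = 5e-13), which placed it among the 10 highest genes of that stage. MLP28, a major latex protein-like gene, was at 0 in all 3 libraries of 1C and had 1022, 1175 and 1449 in 32C (adjusted p = 3.03e-12). A GDSL-type lipase, AT1G71691, was likewise at 0 in all 3 libraries of 1C and reached 821, 1320.4 and 1413 (adjusted p = 4.61e-12). These 3 genes were thus listed in every library of 32C and in none of 1C.

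LCR48, a small cysteine-rich secreted protein, had 1.03, 0.93 and 0 FPKM in 1C and 1306, 1367 and 1634 in 32C (log2 change 9.82 ± 0.64, adjusted p = 3.14e-08). The thaumatin-like gene AT2G28790, of a family named for pathogenesis-related proteins, was at 0 in all 3 libraries of 1C against 719, 839 and 953 in 32C (adjusted p = 3.03e-12). The knottin-like gene AT1G47540 had 0, 0.50 and 0.14 against 544, 438 and 396 (log2 change 8.58 ± 0.26, adjusted p = 2.47e-11). The other rises of this group were the lipid transfer protein LTPG1, described with the cuticle genes, the aspartyl protease AT1G62290, the peroxidase PRXR1, the glycine-rich AT4G29020, the fatty acid desaturase ADS1, the zinc finger protein AT3G15680, the leucine-rich repeat protein AT1G33590, the transporter ABCG15 and the glutamine synthetase GLN1;5. ADS1 had 173, 198 and 174 FPKM in 32C and GLN1;5 159, 157 and 157, each listed at 0 in all 3 libraries of 1C. PRXR1 was less even, with 0, 0 and 1.01 in 1C and 387, 273 and 215 in 32C (log2 change 7.82 ± 0.52, adjusted p = 3.62e-08).

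The largest falls, chosen by the same rule with the mean taken in 1C, included single members of ribosomal protein and F-box families. AT5G09500, a ribosomal protein of the S19 family, had 188, 199 and 189.7 FPKM in 1C and 1.01, 0.65 and 1.52 in 32C (log2 change -6.57 ± 0.22, adjusted p = 5.92e-11), a ratio of 182 between the means. The acidic ribosomal protein gene AT5G40040 went from 360.01, 455 and 409 to 7.53, 4.85 and 3.93 (log2 change -6.02 ± 0.32, adjusted p = 3.38e-09). The methyltransferase gene AT4G26485 had 395, 416 and 471 in 1C and 8.47, 2.65 and 6.37 in 32C (log2 change -6.07 ± 0.31, adjusted p = 2.57e-09). The absence of overlap in these genes was set by the rule that chose them.

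SWEET8, a sugar transporter, had 1177, 1302 and 1139 FPKM in 1C and 61.02, 40.5 and 22.1 in 32C (log2 change -4.95 ± 0.32, adjusted p = 2.44e-08). AT5G45280, which encodes an enzyme that removes acetyl groups from pectin in the cell wall, fell from 537, 639 and 627 to 12.6, 6.73 and 9.59 (log2 change -5.86 ± 0.30, adjusted p = 2.57e-09). The other falls by this rule were the F-box genes FOA1, AT4G00315 and AT5G25290, the DUF295 gene AT4G25930, the methyltransferase AT4G33110, the dehalogenase-like AT2G36540, the uncharacterized AT5G53670 and emb2204, the annexin ANNAT4 and the cellulase CEL3. ANNAT4 (107, 36.4 and 66.4 in 1C) and CEL3 (131, 26.04 and 77.2) were uneven among the 1C libraries, with replicate 2 lowest. AT3G59480, a pfkB-type sugar kinase, was among the 10 highest genes of 1C with 2373, 2540.2 and 2243 and fell to 499, 465 and 469.5 (log2 change -2.32 ± 0.14, adjusted p = 1.21e-08).

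Genes of translation were among the most abundant. The elongation factor gene AT5G60390 was the highest gene of both stages (5519.6 ± 190.1 FPKM, SD, n = 3, in 1C and 6355 ± 763 in 32C, log2 change 0.20 ± 0.17, adjusted p = 0.447). Among the 10 highest of 32C, the glycine-rich protein AT3G24250 had risen from 44.2, 62.2 and 20.6 to 5103, 5523 and 6006 (log2 change 7.13 ± 0.32, adjusted p = 6.48e-10). The hydroxyproline-rich MEE26 had risen from 166, 143 and 144 to 4207, 3479.9 and 3348 (log2 change 4.59 ± 0.59, adjusted p = 3.4e-05). The uncharacterized AT4G33145 rose from 752 ± 40.9 to 2947 ± 251 (log2 change 1.97 ± 0.47, adjusted p = 0.00593). The top 10 genes took 3.27 ± 0.06% of the summed FPKM in 1C and 4.32 ± 0.19% in 32C. Ribosomal protein genes (P40, AT5G20290, AT5G15200, EMB2296) and the ADP/ATP carrier AAC1 were among the 10 highest at both stages, and none of these 5 was called. HOG1, an S-adenosylhomocysteine hydrolase, was among the 10 highest of 1C alone, with 2087, 2020.2 and 2124 in 1C and 1413, 1619 and 1732 in 32C, and was not called either (log2 change -0.39 ± 0.20, adjusted p = 0.168).

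Regulators of the outer cell layer divided into those already present at the 1-cell stage and those that appeared later. Of 15 protoderm regulators, 14 passed the filter on low values, 4 rose and 0 fell, with a median log2 change of 0.42 against 0 for all genes. These were 28.6% and 0% of those tested, against 12.5% and 8.52% of all genes. Of the 14, 2 reached FPKM 1 in no library outside 32C, so they passed the filter only through the stage where they were high. PDF2, the homeobox partner of ATML1, had 8.57, 7.18 and 8.6 FPKM in 1C and 101, 115 and 139 in 32C (log2 change 3.7 ± 0.47, adjusted p = 2.82e-05). ATML1 itself was not called (log2 change 0.24 ± 0.28, adjusted p = 0.581), nor was the related HDG5, with 79.05, 82.01 and 86.8 in 1C and 116, 109.7 and 115 in 32C (log2 change 0.45 ± 0.25, adjusted p = 0.196). ATML1 and HDG5 were slightly higher in every 32C library, whereas PDF2 was 14.6 times higher by the means.

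TWS1, the precursor of a peptide that monitors the integrity of the embryonic cuticle, was at 0 in all 3 libraries of 1C and had 11.3, 9.07 and 14.3 FPKM in 32C (adjusted p = 1.14e-08). Its receptors GSO1 and GSO2 were present at both stages: GSO1 had 29.4, 35.5 and 34.5 in 1C and 19.2, 25.1 and 25.5 in 32C (log2 change -0.50 ± 0.49, adjusted p = 0.507), and GSO2 34.2, 39.5 and 31.4 and 14.8, 20.3 and 21.8 (log2 change -0.86 ± 0.31, adjusted p = 0.0511). ACR4, a receptor kinase of the epidermis, went from 1.12, 0.83 and 1.88 to 5.37, 7.03 and 8.66 (log2 change 1.82 ± 0.37, adjusted p = 0.00178), a call lost with a pseudocount of 0.1. The peptide precursor was therefore listed at the later stage, whereas both receptors were listed at both stages and not called.

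Most tested genes of cuticle and wax formation rose. Of 36 such genes, 24 were tested, 17 rose and 1 fell, with a median log2 change of 2.22. These were 70.8% and 4.17% of those tested, against 12.5% and 8.52% of all genes. Of the tested members, 2 passed the filter through 32C libraries alone, meaning here and below that no library outside 32C reached FPKM 1. Members that reached it in too few other libraries, such as LTP4, also needed 32C to pass. They are not in these counts, which are therefore lower limits. The summed FPKM of the list was 674 to 906 in 1C and 3364 to 4522 in 32C.

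The cutin branch began with fatty acid activation and oxidation. LACS2, a long-chain acyl-CoA synthetase, was at 0 in all 3 libraries of 1C and had 39.98, 64.5 and 70.1 FPKM in 32C (adjusted p = 4.56e-10). ATT1, a cytochrome P450 that oxidises fatty acids, rose from 0.16, 2.05 and 0.81 to 16.4, 30.4 and 19.1 (log2 change 3.58 ± 0.38, adjusted p = 4.88e-06). LCR (LACERATA), a related P450, rose from 1.92, 2.06 and 2.98 to 16.1, 20.6 and 21.9 (log2 change 2.63 ± 0.38, adjusted p = 0.000114). DCR, an acyltransferase needed for cutin, rose from 2.24 ± 0.88 (SD, n = 3) to 161 ± 51.6 (log2 change 5.63 ± 0.42, adjusted p = 1.34e-07). BDG, a hydrolase-like protein of the epidermal wall, rose from 8.02, 9.12 and 2.92 to 66.6, 66.95 and 71.6 (log2 change 3.29 ± 0.33, adjusted p = 2.61e-06). HTH, an oxidoreductase whose loss fuses organs, rose from 6.13, 4.81 and 7.78 to 40.9, 37.3 and 33.8 (log2 change 2.42 ± 0.34, adjusted p = 7.08e-05). For each of these genes all libraries of 32C were above all libraries of 1C, as for 2293 of all 2312 genes that rose. The acyltransferases GPAT4 and GPAT8, which act together in cutin synthesis, moved apart. GPAT4 rose from 6.22, 11.9 and 2.03 to 27.7, 26.96 and 25 (log2 change 2.07 ± 0.46, adjusted p = 0.00335). GPAT8 fell from 11.99, 32.3 and 23.6 to 2.1, 4.35 and 4.1 (log2 change -2.32 ± 0.41, adjusted p = 0.000571).

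Some genes of very-long-chain fatty acids, wax and lipid transfer rose as well, while CER1, CER4, WSD1, LTP1 and LTP2 were under FPKM 1 in all 6 libraries. FDH (FIDDLEHEAD), an elongase of the epidermis, had 6.44, 7.45 and 2.06 FPKM in 1C and 159.97, 191 and 216 in 32C (log2 change 5.03 ± 0.44, adjusted p = 6.17e-07). CER6, the elongase of stem and pollen wax, was at 0 in all 3 libraries of 1C against 6.74, 16.3 and 8.79 (adjusted p = 3.22e-07). LTPG1, a lipid transfer protein anchored at the plasma membrane, went from 0, 0.32 and 0.14 to 423, 642 and 558 (log2 change 8.87 ± 0.59, adjusted p = 4.01e-08). LTPG2 rose from 1.06, 1.27 and 0.14 to 38.4, 46.3 and 49.4 (log2 change 4.7 ± 0.28, adjusted p = 1.17e-08). LTP3 was already abundant at 404, 462 and 303 in 1C and reached 1729.8, 2348 and 1939 (log2 change 2.37 ± 0.49, adjusted p = 0.00211). Its neighbour LTP4 rose from 0, 0 and 0.38 to 30.6, 72.3 and 36.5 (log2 change 5.31 ± 0.52, adjusted p = 2.03e-06), and reads of such close copies can be shared. CER3 (log2 change 1.61 ± 0.30, adjusted p = 0.000845), the exporter ABCG32 (log2 change 1.59 ± 0.25, adjusted p = 0.000191) and LACS4 (log2 change 1.32 ± 0.13, adjusted p = 2.65e-06) rose less. The core elongase subunits KCR1 (log2 change 0.82 ± 0.25, adjusted p = 0.0247), PAS2 (log2 change 0.89 ± 0.43, adjusted p = 0.14) and CER10 (log2 change 0.61 ± 0.37, adjusted p = 0.24) and the exporter ABCG11 (log2 change 0.79 ± 0.35, adjusted p = 0.108) were not called.

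**Figure D2:**
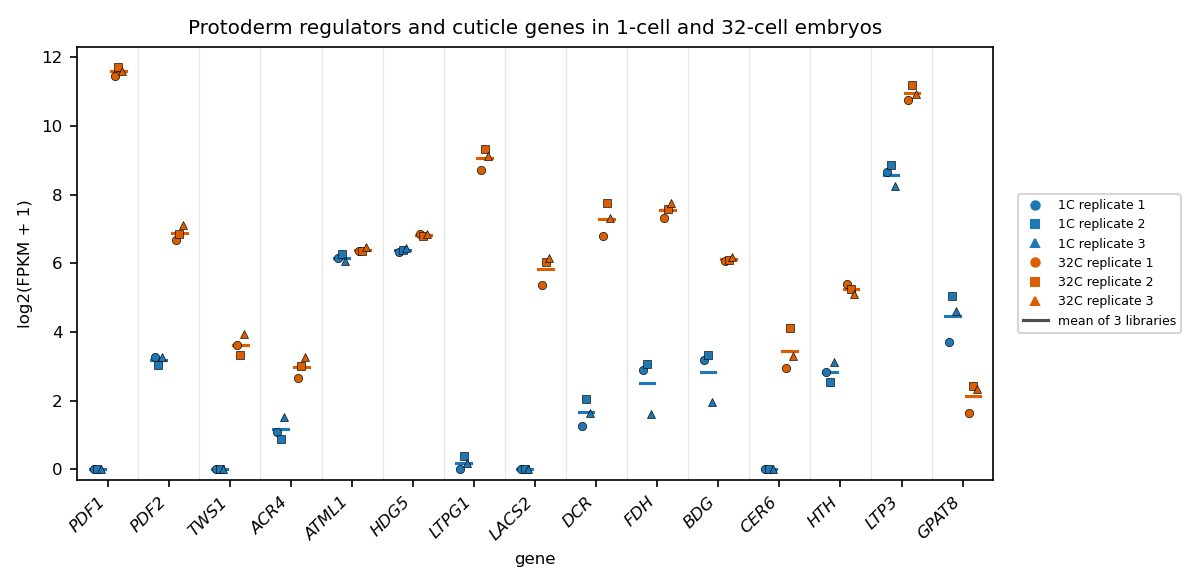
Log2(FPKM + 1) of protoderm and cuticle genes (horizontal axis) in each library, with 1C in blue, 32C in orange, 1 symbol per replicate and a bar at the mean of 3 libraries. ATML1 and HDG5 differ little between the stages, PDF1, TWS1, LACS2 and CER6 start from 0, and GPAT8 is lower in 32C.

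Several genes of the shoot apex rose, while the early apical genes WOX2, DRN and HAN were not called. Of 21 apical and shoot meristem genes, 14 were tested, 9 rose and 0 fell (64.3% and 0%, median log2 change 1.44). The shares of all genes were 12.5% and 8.52%, and 1 of the tested members passed the filter through 32C alone. With a filter at FPKM 5 the count was 5 of 10, against 11.9% of all genes so tested. CUC2, a NAC factor of organ boundaries, was at 0 in all 3 libraries of 1C and had 8.1, 26.9 and 32.7 FPKM in 32C (adjusted p = 4.21e-05), with replicate 1 lowest. CUC3, its partner, had 0.14, 0.13 and 0.33 and 2.93, 9.95 and 10.99 (log2 change 2.75 ± 0.34, adjusted p = 2.12e-05). WUS, which maintains the stem cell niche, was at 0 in all 3 libraries of 1C and had 7.29, 7.38 and 4.36 in 32C (adjusted p = 6.52e-06). WOX3, a homeobox gene of organ margins, rose from 1.23, 1.71 and 1.93 to 10.5, 11.2 and 15.5 (log2 change 2.35 ± 0.23, adjusted p = 2.54e-06). None of these genes overlapped between the stages, which also held for 2293 of all 2312 genes that rose.

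The class 1 homeobox gene KNAT6 rose from 0.24, 2.97 and 1.73 to 6.49, 7.0 and 9.48 FPKM (log2 change 1.85 ± 0.37, adjusted p = 0.00155). CRN (CORYNE), a membrane kinase of the CLAVATA pathway, rose from 0.07, 0.03 and 0 to 3.65, 5.82 and 5.91 (log2 change 2.54 ± 0.43, adjusted p = 0.00041). STM, the main meristem homeobox gene, was at 0 in all 6 libraries and was not tested. Among the early apical genes, WOX2 was not called (log2 change -0.25 ± 0.27, adjusted p = 0.557). DRN had 59.8, 54 and 81.1 in 1C and 74.2, 53.2 and 41.2 in 32C (log2 change -0.22 ± 0.37, adjusted p = 0.72). The GATA factor HAN had 197, 186 and 241 and 147, 119 and 112 (log2 change -0.72 ± 0.44, adjusted p = 0.249). None of these was called.

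The adaxial and abaxial polarity genes, which later set the upper and lower sides of lateral organs, rose in most tested cases. Of 20 HD-ZIP III and polarity genes, 15 were tested, 11 rose and 0 fell (73.3% and 0%, median log2 change 2.77). The shares of all genes were 12.5% and 8.52%, and 4 of the tested members passed the filter through 32C alone. Of the adaxial HD-ZIP III factors, PHB rose from 2.49, 5.38 and 3.16 to 60.2, 64.7 and 81.2 FPKM (log2 change 3.93 ± 0.32, adjusted p = 2.4e-07). ATHB15 rose from 2.4, 2.43 and 2.75 to 21.6, 22.2 and 26.6 (log2 change 2.79 ± 0.41, adjusted p = 0.000132). PHV rose from 1.14, 1.27 and 1.15 to 8.87, 7.88 and 12.1 (log2 change 2.26 ± 0.38, adjusted p = 0.000414), a call lost with a pseudocount of 0.1. REV had 10.1, 7.59 and 8.23 in 1C and 38.4, 30.3 and 38.7 in 32C, with no overlap, but was not called in the fit over 15 libraries (log2 change 1.93 ± 0.76, adjusted p = 0.0731) and was called in a fit of the 6 libraries alone (log2 change 1.93, adjusted p = 0.000101). Its levels in Zy14 were 17.2 ± 25.1.

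ZPR3, a small protein that binds and inhibits HD-ZIP III factors, was at 0 in all 3 libraries of 1C and had 93.5, 95.5 and 99.2 FPKM in 32C (adjusted p = 5.54e-11), so this inhibitor and 3 of the 4 HD-ZIP III genes above rose. On the abaxial side, the auxin response factor ARF3 rose from 0.76, 1.06 and 0.14 to 57.1, 61.95 and 90.5 (log2 change 5.43 ± 0.37, adjusted p = 4.14e-08). The KANADI genes KAN2 (6.37, 8.44 and 7.39 in 32C, adjusted p = 2.7e-08) and KAN4 (7.5, 10.97 and 9.04, adjusted p = 1.8e-08) and the YABBY gene FIL (11.04, 4.57 and 4.41, adjusted p = 1.96e-06) had no listed value in any 1C library. FIL was highest in 32C replicate 1, as was AS2 (11.1, 4.66 and 3.67, adjusted p = 4.57e-05), which was also at 0 in 1C.

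Regulators of the vascular precursor, ground tissue and root pole made up a further set. Of 36 such genes, 28 were tested, 17 rose and 0 fell (60.7% and 0%, median log2 change 2.44), against 12.5% and 8.52% of all genes. In all 1C libraries 11 of the tested members were at 0. Of those tested, 6 passed the filter through 32C alone. MP (MONOPTEROS), the auxin response factor that starts the vascular and root programmes, rose from 25.8, 20.03 and 16.1 to 100.3, 126 and 164 FPKM (log2 change 2.6 ± 0.37, adjusted p = 8.19e-05). Of the TMO genes, known as its targets, TMO3, TMO5 and TMO6 rose, and TMO7 was at 0 in all 6 libraries. TMO5, a bHLH factor of vascular division, was at 0 in all 3 libraries of 1C and had 27.9, 46.2 and 41.1 in 32C (adjusted p = 9.3e-10). Its homologue T5L1 rose from 5.29, 9.11 and 2.62 to 41.6, 31.9 and 34.2 (log2 change 2.58 ± 0.39, adjusted p = 0.000166). TMO3 rose from 5.31, 5.96 and 11.4 to 35.2, 45.9 and 52.4 (log2 change 2.46 ± 0.31, adjusted p = 2.46e-05). TMO6, at 0 in 1C, had 7.21, 10.2 and 16.4 (adjusted p = 8.44e-08). LHW, the partner of TMO5, was present at both stages with 22.7, 21.1 and 26.1 and 32.8, 34.9 and 40.4 and was not called (log2 change 0.61 ± 0.50, adjusted p = 0.409). The inhibitor of MP, BDL (IAA12), had 14.8, 22.9 and 24.4 in 1C and 44.1, 49.98 and 40.6 in 32C without overlap and was not called (log2 change 1.11 ± 0.61, adjusted p = 0.201), although it was in the fit of 6 libraries (log2 change 1.11, adjusted p = 0.00272).

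The zinc finger genes NTT and WIP4, which act in the root founder cell, were at 0 in all 3 libraries of 1C and had 26.1, 26.97 and 26.4 FPKM (adjusted p = 2.5e-07) and 32.5, 36.4 and 47.9 (adjusted p = 4.51e-10) in 32C. SHR, a GRAS factor that moves from the vascular tissue into the ground tissue, was also at 0 in all 3 libraries of 1C and had 18.9, 20.4 and 19.9 in 32C (adjusted p = 1.43e-07). Its partner SCR, in contrast, had 57.02, 46.1 and 60.98 in 1C and 46.4, 47.4 and 44.1 in 32C (log2 change -0.24 ± 0.40, adjusted p = 0.724), with overlapping libraries. WOX5, a homeobox gene of the root stem cell niche, rose from 0, 0.34 and 0.53 to 12.4, 16.6 and 21.1 (log2 change 3.77 ± 0.26, adjusted p = 5.54e-08). Among the PLETHORA genes of the root pole, PLT3 rose from 6.66, 0 and 3.54 to 12.1, 20.22 and 24.6 (log2 change 2.56 ± 0.54, adjusted p = 0.0024). PLT1 rose from 14.6, 27.4 and 20.24 to 84.01, 91.05 and 107 (log2 change 2.16 ± 0.38, adjusted p = 0.000577, lost with a pseudocount of 0.1). BBM had 224, 201 and 203 in 1C and 122, 121 and 129 in 32C and was not called (log2 change -0.75 ± 0.29, adjusted p = 0.0645). PLT2 had 86.8, 65.7 and 81.7 and 30.3, 37.2 and 50.5 and was not called either (log2 change -0.99 ± 0.27, adjusted p = 0.0122). PLT2 was called with a pseudocount of 0.1, after scaling to equal FPKM sums (log2 change -1.07, adjusted p = 0.007), without 1C replicate 2 (log2 change -1.11, adjusted p = 0.017) and without 32C replicate 3 (log2 change -1.18, adjusted p = 0.01).

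The auxin genes that rose included genes of synthesis, transport and response. Of 18 synthesis and conjugation genes, 9 were tested, 5 rose and 1 fell (55.6% and 11.1%, median 1.72), against 12.5% and 8.52% of all genes. Of the 9, 1 passed the filter through 32C alone. TAA1, the aminotransferase of the main synthesis route, had 0, 0.07 and 0.40 FPKM in 1C and 29.8, 26.1 and 28.5 in 32C (log2 change 4.67 ± 0.34, adjusted p = 8.49e-08), against 16.8 ± 3.48 in EC. Of the YUCCA monooxygenases that complete the route, YUC3 rose from 4.88, 0 and 1.93 to 103, 92.2 and 95.4 (log2 change 5.24 ± 0.62, adjusted p = 1.38e-05) and YUC9 from 7.39, 1.03 and 5.25 to 16.2, 18.8 and 21.9 (log2 change 2.07 ± 0.40, adjusted p = 0.0013). YUC1, at 0 in 1C, had 3.78, 3.37 and 5.71 (adjusted p = 7.65e-07). YUC4 was not called (18.98, 18.6 and 8.6 in 1C, 29.3, 27.6 and 21.8 in 32C, log2 change 0.80 ± 0.73, adjusted p = 0.465). GH3.6, which conjugates auxin to amino acids, fell from 9.56, 11.02 and 13.4 to 0.45, 2.42 and 2.65 (log2 change -2.22 ± 0.45, adjusted p = 0.00185). TAR1, YUC2, YUC6, YUC10 and YUC11 were under FPKM 1 in all 6 libraries.

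Of 23 transport genes, 19 were tested, 13 rose and 1 fell (68.4% and 5.26%, median 2.11). The shares of all genes were 12.5% and 8.52%, and 3 of the tested members passed the filter through 32C alone. PIN4, an efflux carrier of the root pole, rose from 2.12, 2.12 and 1.71 to 9.91, 16.8 and 17.2 FPKM (log2 change 2.36 ± 0.41, adjusted p = 0.000562). PIN7, known from the basal cell and suspensor, rose from 8.47, 3.27 and 5.31 to 27.4, 36.1 and 43.7 (log2 change 2.51 ± 0.31, adjusted p = 2.41e-05). PIN2, a carrier of the later root epidermis, fell from 5.08, 2.37 and 3.53 to values listed at 0 in all 3 libraries (adjusted p = 0.000157). Of the influx carriers, LAX2 rose from 0.13, 0.10 and 0 to 62.2, 46.02 and 47.5 (log2 change 5.61 ± 0.31, adjusted p = 5.66e-09). AUX1 rose from 10.9, 12.9 and 2.75 to 48.97, 48.2 and 55.3 (log2 change 2.6 ± 0.40, adjusted p = 0.000186) and had been at 147 ± 10.9 in EC and 0.31 ± 0.18 in Zy24.

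The kinases and scaffold-like proteins that control PIN polarity showed the same split between present and new. NPY5 rose from 0.08, 0.06 and 0 to 41.6, 35.1 and 45.04 FPKM (log2 change 5.31 ± 0.29, adjusted p = 3.76e-09) and NPY1 from 20.7, 32.3 and 34.1 to 114, 128 and 136 (log2 change 2.11 ± 0.33, adjusted p = 0.000196). WAG2 rose from 0, 0.19 and 0.09 to 3.07, 7.04 and 8.08 (log2 change 2.61 ± 0.27, adjusted p = 3.82e-06). PID, the main kinase of this group, had 40.3, 32.05 and 24.7 in 1C and 31.9, 44.1 and 50.95 in 32C and was not called (log2 change 0.38 ± 0.41, adjusted p = 0.551). D6PK (log2 change 0.08 ± 0.26, adjusted p = 0.888), the trafficking regulator GN (log2 change -0.27 ± 0.35, adjusted p = 0.625) and the exporters ABCB1 (log2 change -0.43 ± 0.32, adjusted p = 0.36) and ABCB19 (log2 change -0.30 ± 0.53, adjusted p = 0.74) were not called either.

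Of 51 response genes, 38 were tested, 15 rose and 2 fell (39.5% and 5.26%, median 0.90). The shares of all genes were 12.5% and 8.52%, and 7 of the tested members passed the filter through 32C alone. Most of the rises were Aux/IAA genes, whose proteins repress auxin response factors and many of which are themselves induced by auxin. IAA18 went from 0, 0.68 and 0.39 to 133, 152 and 155 FPKM (log2 change 6.8 ± 0.52, adjusted p = 1.55e-07) and IAA30 from 0, 0 and 0.08 to 112, 57.9 and 85.4 (log2 change 6.34 ± 0.26, adjusted p = 3.58e-10). IAA1 (61.4, 45.1 and 77.8 in 32C, adjusted p = 5.76e-10), IAA13 (28.4, 31.9 and 40.5, adjusted p = 3.97e-09), IAA26 (19.04, 36.2 and 29.2, adjusted p = 2.76e-09), IAA19 (8.87, 13.9 and 13.5, adjusted p = 1.4e-07) and IAA2 (14.7, 8.12 and 11.9, adjusted p = 2.55e-08) were listed at 0 in every 1C library. IAA8 was already abundant, with 128, 123 and 144 in 1C and 374, 405 and 441 in 32C (log2 change 1.62 ± 0.15, adjusted p = 1.1e-06).

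Auxin response factors moved in both directions. Besides MP and ARF3, ARF16 (at 0 in 1C, 18.02, 9.42 and 4.38 in 32C, adjusted p = 1.2e-05) and ARF10 (0, 3.98 and 1.88 to 17.2, 12.5 and 12.9, log2 change 2.63 ± 0.44, adjusted p = 0.000357) rose. ARF17, which is a target of the same miRNA family as ARF10 and ARF16, fell from 25.1, 23.4 and 16.7 to 7.69, 4.96 and 4.13 (log2 change -1.8 ± 0.24, adjusted p = 3.99e-05), and it had been at 230.4 ± 33.1 in EC. ARF18 fell from 153, 172 and 189 to 63.4, 56.2 and 69.04 (log2 change -1.43 ± 0.19, adjusted p = 4.35e-05). Among the receptors, AFB2 (22.2, 21.3 and 23.8 in 1C, 40.6, 42.5 and 45.5 in 32C, log2 change 0.91 ± 0.24, adjusted p = 0.0112) stayed below the fold limit.

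**Figure D3:**
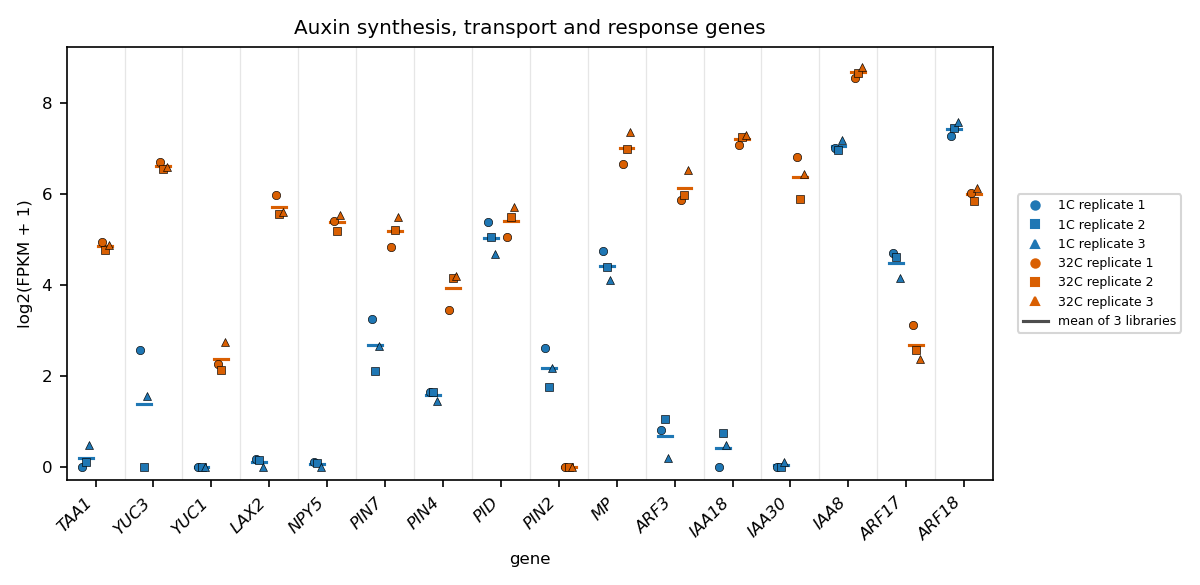
Log2(FPKM + 1) of auxin synthesis, transport and response genes (horizontal axis) in each library, with 1C in blue, 32C in orange, 1 symbol per replicate and a bar at the mean of 3 libraries. TAA1, YUC1, LAX2, NPY5, IAA18 and IAA30 start near 0, PID overlaps between the stages, and PIN2, ARF17 and ARF18 are lower in 32C.

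Cytokinin genes showed opposite changes of close relatives. Of 45 genes, 28 were tested, 10 rose and 2 fell (35.7% and 7.14%, median 0.92), with 1 fall without 1C replicate 2, 32C replicate 1 or 32C replicate 3. The shares of all genes were 12.5% and 8.52%, and 1 of the tested members passed the filter through 32C alone. Of the type-A response regulators, which dampen the signal, ARR7 was at 0 in all 3 libraries of 1C and had 19.2, 16.01 and 18.7 FPKM in 32C (adjusted p = 2.31e-09). ARR3 rose from 3.34, 11.8 and 11.3 to 86.2, 114 and 149 (log2 change 3.7 ± 0.38, adjusted p = 3.43e-06) and ARR5 from 0, 1.44 and 0.55 to 16.5, 12.4 and 9.26 (log2 change 3.11 ± 0.34, adjusted p = 6e-06). ARR15, the closest relative of ARR7, fell from 144, 149.9 and 138 to 18.5, 24.9 and 28.1 (log2 change -2.57 ± 0.18, adjusted p = 5.79e-08), and it was at 247 ± 35.05 in EC, 173 ± 11.3 in Zy14 and 254 ± 56.05 in Zy24. ARR15 had the highest FPKM of the type-A genes in 1C and ARR3 in 32C. Of the enzymes that release active cytokinin, LOG4 rose from 0.82, 0.66 and 4.07 to 23.7, 17.99 and 27.9 (log2 change 3.26 ± 0.59, adjusted p = 0.000701). LOG5 rose from 2.5, 2.21 and 0.16 to 10.4, 24.98 and 45.99 (log2 change 3.36 ± 0.56, adjusted p = 0.000399), unevenly in 32C. CKX6, which breaks cytokinin down, rose from 0.20, 0.21 and 0.12 to 11.99, 13.6 and 11.8 (log2 change 3.51 ± 0.26, adjusted p = 1.03e-07). The receptor AHK4 rose from 4.7, 1.82 and 3.71 to 13.7, 16.8 and 19.8 (log2 change 2.05 ± 0.48, adjusted p = 0.00478).

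Among 42 tested genes of gibberellin, abscisic acid and brassinosteroid (53 matched), 13 rose and 1 fell (30.95% and 2.38%, median 0.49). The shares of all genes were 12.5% and 8.52%, and 4 of the tested members passed the filter through 32C alone. The rises included genes of brassinosteroid synthesis and response. DWF4, its rate-limiting enzyme, was at 0 in all 3 libraries of 1C and had 81.2, 96.3 and 99.1 FPKM in 32C (adjusted p = 6.1e-11). BR6OX2, which acts at the end of the route, was also at 0 in 1C and had 25.7, 24.9 and 26.8 (adjusted p = 2.83e-06). CPD rose from 0.06, 0 and 0.03 to 5.69, 8.59 and 7.5 (log2 change 2.99 ± 0.31, adjusted p = 3.35e-06) and had been at 93.04 ± 9.51 in EC. DET2, an earlier enzyme, fell from 25.1, 26.5 and 26.9 to 10.7, 7.32 and 7.17 (log2 change -1.55 ± 0.20, adjusted p = 2.79e-05). The receptor BRI1, at 0 in 1C, had 3.48, 5.69 and 5.04 (adjusted p = 0.00689), and the transcription factor BES1 rose from 1.26, 4.63 and 1.52 to 29.5, 41.2 and 38.3 (log2 change 3.54 ± 0.54, adjusted p = 0.000181). The abscisic acid receptor PYL2 was at 0 in all 3 libraries of 1C and had 31.4, 33.2 and 28.5 in 32C (adjusted p = 3.92e-10).

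Several mitotic genes fell, and other regulators of cell division rose or fell. Of 64 mitosis and cytokinesis genes, which also include cyclins and inhibitors of other phases, 61 were tested, 6 rose and 16 fell, with a median log2 change of -1.03. These were 9.84% and 26.2% of those tested, against 12.5% and 8.52% of all genes. The summed FPKM of the list was 3521, 7807 and 5282 in 1C and 2746, 2612 and 3224 in 32C, so 1C replicate 2 stood highest and 1C replicate 1 closest to 32C. Without 1C replicate 2 the median was -0.74 and 12 members fell, and in a fit of the 6 libraries alone 26 fell, against 7.93% and 11.2% of all genes in the same fits. The part of that library in the result was not tested beyond these values.

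Several mitotic regulators fell without overlap of the stages, as did 1542 of all 1575 genes that fell. MYB3R4, an activator of mitotic genes, had 42.99, 62.3 and 52.5 FPKM in 1C and 8.59, 8.83 and 11.7 in 32C (log2 change -2.32 ± 0.35, adjusted p = 0.000135). CYCA2;2 went from 34.8, 43.99 and 38.6 to 5.34, 4.98 and 9.39 (log2 change -2.45 ± 0.51, adjusted p = 0.00209). CYCB3;1 fell from 152, 200.4 and 179 to 37.6, 38.98 and 49.8 (log2 change -2.05 ± 0.50, adjusted p = 0.00684). CKS2, a subunit of cyclin-dependent kinases, fell from 142, 174 and 176 to 38.2, 40.3 and 54.1 (log2 change -1.88 ± 0.30, adjusted p = 0.000288), and the mitotic kinase CDKB2;2 from 59.8, 124 and 93.8 to 33.1, 26.3 and 34.4 (log2 change -1.49 ± 0.26, adjusted p = 0.000617). MAP65-3 (PLE), which binds the microtubules of the division plane, fell from 66.8, 134 and 112 to 34.6, 32 and 50.7 (log2 change -1.36 ± 0.32, adjusted p = 0.00479).

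The B1 cyclins and their neighbours had means that were lower in 32C without a call. CYCB1;1 had 119.6, 385 and 204 FPKM in 1C and 72.9, 52.7 and 83.7 in 32C (log2 change -1.61 ± 0.99, adjusted p = 0.253). CYCB1;2 had 153, 845 and 409 and 136, 94.4 and 165 (log2 change -1.54 ± 0.59, adjusted p = 0.0674). The spindle protein TPX2 had 47.1, 154 and 86.4 and 29.8, 23.2 and 44.1 (log2 change -1.43 ± 0.70, adjusted p = 0.149). In each of them 1C replicate 2 was the highest library, and CYCB1;2 was called without 1C replicate 1 (log2 change -2.19, adjusted p = 0.0133). CYCB1;1 (log2 change -1.61, adjusted p = 0.0113) and TPX2 (log2 change -1.43, adjusted p = 0.0197) were called in the fit of 6 libraries alone. The kinetochore gene NDC80 was even among replicates, with 38.6, 41.3 and 38.99 and 11.8, 15.9 and 18.4, and it was not called over 15 libraries (log2 change -1.33 ± 0.52, adjusted p = 0.069) but was over 6 (log2 change -1.33, adjusted p = 0.000609). Kinesins, motor proteins many of which act in the spindle and the division plane, showed 0 rises and 8 falls among 28 tested (median -0.97). The falls were 28.6% of the family, against 8.52% of all genes. ATK4 fell from 29.3, 22.1 and 17.6 to 5.15, 4.77 and 8.47 (log2 change -1.76 ± 0.34, adjusted p = 0.0014). ATK1 fell from 54.96, 58.1 and 61.3 to 19.4, 16.2 and 23.1 (log2 change -1.53 ± 0.39, adjusted p = 0.00811). Without 32C replicate 2 there were 4 kinesin falls and in the fit of 6 libraries 13, and ATK1 was lost with a pseudocount of 0.1.

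Cyclins of the D type and cyclin-dependent kinase inhibitors changed as single members. CYCD3;1, a D-type cyclin that responds to cytokinin, rose from 0.91, 1.87 and 0.09 to 41.1, 55.3 and 40.99 FPKM (log2 change 4.67 ± 0.51, adjusted p = 6.82e-06). The other tested D-type cyclins were not called, and CYCD5;1, with 18.4, 18.8 and 22.4 in 1C and 7.59, 11.9 and 10.4 in 32C (log2 change -0.94 ± 0.25, adjusted p = 0.0115), was called lower without 32C replicate 2 (log2 change -1.07, adjusted p = 0.0155). The inhibitor KRP5 rose from 15.4, 9.97 and 5.91 to 70.5, 59.97 and 67.9 (log2 change 2.64 ± 0.42, adjusted p = 0.000249). KRP3 rose from 4.23, 11.2 and 6.74 to 41.7, 38.2 and 34.8 (log2 change 2.31 ± 0.48, adjusted p = 0.00229, lost with a pseudocount of 0.1). KRP4 rose from 11.1, 6.8 and 11.3 to 24.8, 17.5 and 18.8 (log2 change 1.01 ± 0.25, adjusted p = 0.00707), a call lost without 1C replicate 2 (log2 change 0.80) or 32C replicate 1 (log2 change 0.86). KRP6 fell from 19.8, 3.52 and 12.1 to 1.68, 3.42 and 1.57 (log2 change -1.78 ± 0.48, adjusted p = 0.0118), a call lost without 1C replicate 1 (adjusted p = 0.0643) or 1C replicate 3 (adjusted p = 0.05003). KRP1 fell from 1.71, 2.93 and 2.71 to 0.19, 0.27 and 0.36 (log2 change -1.42 ± 0.44, adjusted p = 0.025), a call lost without any 1 library other than 1C replicate 1 (adjusted p = 0.0576 to 0.0764). The inhibitors thus moved in both directions, and KRP2 and KRP7 were not called. CCS52A2, which activates the anaphase-promoting complex and is known for its part in leaving the mitotic cycle, rose from 1.67, 1.62 and 0.08 to 7.85, 10.04 and 10.2 (log2 change 2.39 ± 0.55, adjusted p = 0.00426). Small inhibitors of the SMR type, AT5G02420 (12.5, 10.9 and 9.3 in 32C, adjusted p = 6.69e-08) and AT2G28870 (8.18, 8.57 and 9.62, adjusted p = 4.88e-06), were at 0 in all 1C libraries.

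DNA replication genes changed in small number. Of 39 genes, all tested, 6 rose and 2 fell (15.4% and 5.13%, median 0.39), against 12.5% and 8.52% of all genes. Leaving out 1 library left 3 to 5 rises, with 3 without 32C replicate 3, against 11.2% of all genes in that fit. ORC1A, a subunit of the origin recognition complex, was at 0 in all 3 libraries of 1C and had 3.19, 4.28 and 3.24 FPKM in 32C (adjusted p = 0.00232). FAS1, a histone chaperone subunit, rose from 2.75, 3.72 and 3.65 to 18.4, 13.1 and 16.4 (log2 change 1.95 ± 0.29, adjusted p = 0.00015). TSO2, a ribonucleotide reductase subunit, fell from 195, 289 and 249 to 105, 111 and 117 (log2 change -1.11 ± 0.18, adjusted p = 0.000315), a call lost after median of ratios scaling (log2 change -0.98, adjusted p = 0.00113) and without 1C replicate 2 (log2 change -0.98, adjusted p = 0.00248). The helicase subunit MCM2 (29.2, 28.7 and 38.6 in 1C, 79.9, 58.3 and 66.9 in 32C, log2 change 1.07 ± 0.56, adjusted p = 0.172) and the clamp PCNA2 (103, 74.8 and 81.6, 162, 144 and 139.97, log2 change 0.79 ± 0.27, adjusted p = 0.0444) had higher values in 32C without a call. Of 31 core histone genes, 6 rose and 0 fell (19.4% and 0%, median 0.58), against 12.5% and 8.52% of all genes, and leaving out 1 library gave 5 to 7 rises. Among the rises was HTB9 (85.98, 75.8 and 69.9 to 206, 246 and 208, log2 change 1.5 ± 0.26, adjusted p = 0.000456). HTA2 rose from 76.98, 52.7 and 54.1 to 121, 130.4 and 167 (log2 change 1.18 ± 0.20, adjusted p = 0.000407). HTA12 rose from 0, 1.51 and 0.44 to 14.2, 15.2 and 16.5 (log2 change 3.41 ± 0.57, adjusted p = 0.00038). Histone genes are near-identical copies, so the split of reads among them is uncertain.

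**Figure D4:**
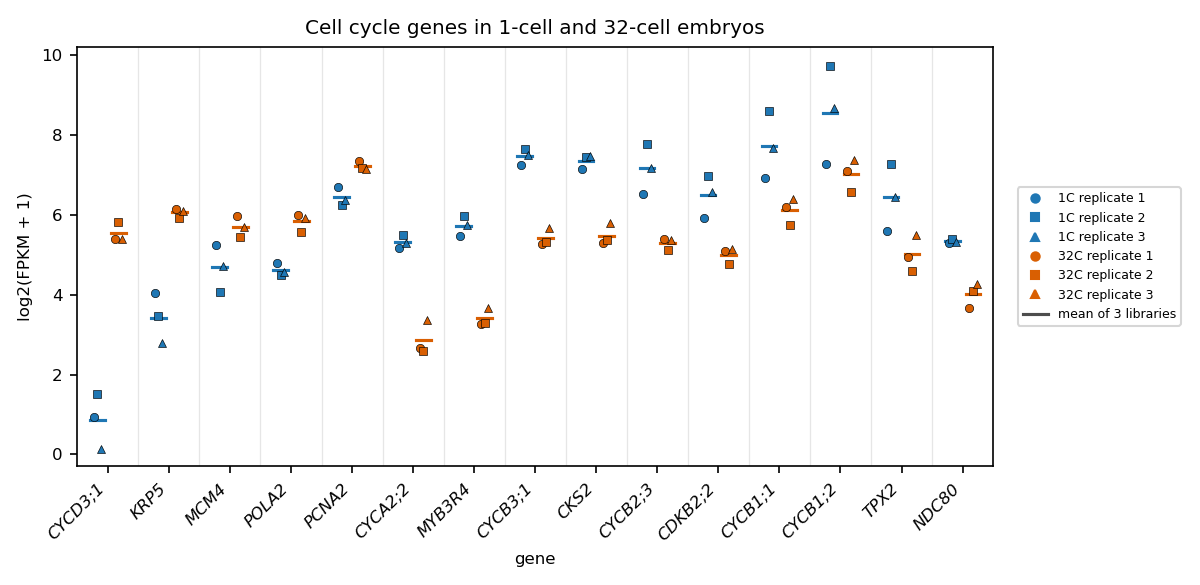
Log2(FPKM + 1) of cell cycle genes (horizontal axis) in each library, with 1C in blue, 32C in orange, 1 symbol per replicate and a bar at the mean of 3 libraries. CYCD3;1 and KRP5 are higher in 32C, the mitotic genes from CYCA2;2 onward have lower means, and in CYCB1;1, CYCB1;2 and TPX2 the square of 1C replicate 2 stands above the other 1C libraries.

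Chromatin and small RNA genes changed as single members in both directions. In DNA methylation, 6 of 31 genes rose and 4 fell (19.4% and 12.9%, median 0.22), against 12.5% and 8.52% of all genes. Of the 31, 1 passed the filter through 32C alone. VIM2, a cofactor of maintenance methylation, fell from 202, 261 and 217 to 26.3, 28.01 and 39.4 FPKM (log2 change -2.83 ± 0.31, adjusted p = 7.26e-06). VIM3, a relative whose reads may be shared with it, fell from 155, 162 and 171 to 55.3, 44.8 and 61.6 (log2 change -1.59 ± 0.15, adjusted p = 1.56e-06). DRM1, a de novo methyltransferase, fell from 22.5, 25.4 and 26.1 to 6.29, 9.97 and 7.71 (log2 change -1.53 ± 0.34, adjusted p = 0.00327). NRPD1, the large subunit of RNA polymerase IV, fell from 39.8, 44.5 and 45.8 to 18.9, 15.9 and 13.9 (log2 change -1.37 ± 0.22, adjusted p = 0.000229). CLSY1, a remodeller that recruits polymerase IV, rose from 0.12, 0.10 and 0.05 to 12.99, 14.7 and 18.3 (log2 change 3.89 ± 0.33, adjusted p = 4.92e-07), and the demethylase DML3 from 0, 0.18 and 0.06 to 4.4, 5.33 and 7.0 (log2 change 2.59 ± 0.27, adjusted p = 3.27e-06). The maintenance methyltransferase MET1 had 34.6, 32.2 and 30.5 in 1C and 28.2, 17.1 and 22.2 in 32C and was not called (log2 change -0.53 ± 0.46, adjusted p = 0.435).

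Among 24 tested Polycomb and trithorax genes, 4 rose and 2 fell (16.7% and 8.33%, median 0.15), with 1 fall without 32C replicate 3. The shares of all genes were 12.5% and 8.52%. BMI1A, a ring finger protein of the complex that marks histone H2A, rose from 12.3, 16.9 and 10.6 to 45.2, 38.03 and 36.9 FPKM (log2 change 1.54 ± 0.35, adjusted p = 0.00424). Its relative BMI1C fell from 14.6, 10.98 and 20.4 to 0.99, 0.69 and 0.52 (log2 change -3.2 ± 0.39, adjusted p = 2.2e-05), and BMI1B was not called (log2 change -0.33 ± 0.28, adjusted p = 0.421). In the small RNA list 3 of 26 rose and 3 fell (11.5% each, median -0.05), close to the shares of all genes. AGO8 fell from 34.3, 37.5 and 43.5 to 3.52, 2.24 and 2.34 (log2 change -3.42 ± 0.27, adjusted p = 2.62e-07) after 415 ± 41.4 in EC. AGO5, an Argonaute of reproductive cells, fell from 162, 189.97 and 222 to 65.1, 61.03 and 74.3 (log2 change -1.5 ± 0.18, adjusted p = 1.98e-05). DRB2, a double-stranded RNA binding protein, rose from 31.2, 31.2 and 32.1 to 150.2, 137 and 127 (log2 change 2.09 ± 0.33, adjusted p = 0.000218). AGO7, at 0 in 1C, had 4.79, 6.36 and 8.53 (adjusted p = 7.79e-05). AGO1, the main Argonaute, had 282, 236 and 263 and 148, 144 and 137 and was not called (log2 change -0.86 ± 0.21, adjusted p = 0.00584). In the SPL list of miR156 targets and relatives, 1 of 9 rose (11.1%) and 0 fell (median 0.15), the riser being SPL15 (0.37, 0 and 0.15 to 2.78, 4.18 and 4.08, log2 change 1.99 ± 0.22, adjusted p = 6.91e-06). Of the 9, 1 passed the filter through 32C alone.

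Of the seed maturation regulators, L1L, FUS3 and ABI3 rose and LEC2 fell. Of 36 genes of maturation, storage and oil, 24 were tested, 5 rose and 3 fell (20.8% and 12.5%, median 0.25), against 12.5% and 8.52% of all genes. Of the 24, 1 passed the filter through 32C alone. Of the 36, 9 were at 0 in all 6 libraries, among them the storage protein genes CRA1, CRU3 and SESA1. L1L, a CCAAT-binding subunit related to LEC1, rose from 4.98, 6.52 and 5.73 to 242, 204 and 169 FPKM (log2 change 4.92 ± 0.50, adjusted p = 3.23e-06). FUS3, a B3 factor, rose from 7.78, 4.41 and 2.2 to 139, 108 and 90.95 (log2 change 4.39 ± 0.39, adjusted p = 6.91e-07). ABI3, at 0 in 1C, had 10.9, 16.97 and 18.3 (adjusted p = 7.68e-09). LEC2, a further B3 factor, fell from 163, 99.5 and 124 to 52.4, 55.5 and 49.6 (log2 change -1.25 ± 0.29, adjusted p = 0.00487) after 219 ± 25.6 in Zy24. Of the oil genes, DGAT1 rose from 12.03, 8.66 and 8.95 to 46.5, 47.9 and 54.7 (log2 change 2.23 ± 0.42, adjusted p = 0.00111). BCCP2 rose from 9.08, 9.59 and 10.9 to 107, 92.95 and 100.3 (log2 change 3.22 ± 0.36, adjusted p = 7.88e-06). The oleosin gene OLEO1 fell from 8.9, 10.1 and 3.87 to 0.07, 1.57 and 1.38 (log2 change -2.12 ± 0.35, adjusted p = 0.000358).

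Some nuclear genes of photosynthesis rose from a low base. Of 42 tested genes of 58 matched, 16 rose and 1 fell (38.1% and 2.38%, median 0.53), or 10 and 1 after quantile normalization, where 11.3% of all genes rose. As deposited the shares of all genes were 12.5% and 8.52%, and 2 of the tested members passed the filter through 32C alone. LHCA1, an antenna protein of photosystem I, rose from 8.66, 6.55 and 3.71 to 27.98, 27.97 and 22.9 FPKM (log2 change 1.96 ± 0.34, adjusted p = 0.000462). LHCB5 rose from 2.28, 2.13 and 0.30 to 11.1, 13.4 and 14.9 (log2 change 2.56 ± 0.36, adjusted p = 8.62e-05) and PSBP-1, of the oxygen-evolving complex, from 4.24, 3.45 and 2.6 to 20.6, 20.07 and 18.8 (log2 change 2.25 ± 0.27, adjusted p = 1.88e-05). PSBY was at 0 in all 3 libraries of 1C and had 11.2, 8.41 and 9.91 in 32C (adjusted p = 1.8e-08). The Rubisco small subunit gene RBCS1A stayed low at 0, 6.66 and 4.07 and 2.38, 3.64 and 5.34 (log2 change 0.45 ± 0.74, adjusted p = 0.716). By product description, 22 of 51 photosystem and light-harvesting genes rose (43.1%) and 0 fell, and 2 of the 51 passed the filter through 32C alone.

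Cell wall genes changed in both directions. Of 31 tested members, 10 rose and 5 fell (32.3% and 16.1%, median -0.19), against 12.5% and 8.52% of all genes. Of the 31, 4 passed the filter through 32C alone. Expansins, which loosen walls, rose in 9 of 16 cases by product description with 0 falls (median 1.37), although that list holds 5 genes that passed the filter through 32C alone. EXPA15 rose from 7.13, 9.21 and 13.4 to 312, 244 and 426 FPKM (log2 change 4.91 ± 0.57, adjusted p = 1.25e-05). EXPA6 rose from 0, 0.03 and 0.44 to 54.4, 77.1 and 57.8 (log2 change 5.8 ± 0.29, adjusted p = 2.28e-09). EXPA3, in the cell wall list, fell from 17.7, 20.8 and 20.4 to 8.13, 4.51 and 10.1 (log2 change -1.32 ± 0.28, adjusted p = 0.00233). The xyloglucan enzyme XTH9 rose from 51.8, 54.5 and 21.9 to 234, 312 and 259 (log2 change 2.72 ± 0.45, adjusted p = 0.000336). The wall glycoprotein AGP9 rose from 4.16, 1.29 and 1.73 to 247, 214 and 231 (log2 change 6.18 ± 0.44, adjusted p = 6.65e-08). FLA1, of a related family, was at 0 in 1C and had 24.2, 32.7 and 26.1 in 32C (adjusted p = 1.17e-08). Of the cellulose synthase subunits of the primary wall, CESA1 fell from 40.4, 41.99 and 41.7 to 15.2, 17 and 20.18 (log2 change -1.21 ± 0.18, adjusted p = 0.000123). CESA2 fell from 4.58, 4.92 and 5.86 to 0.86, 1.67 and 1.85 (log2 change -1.33 ± 0.28, adjusted p = 0.00245). CESA3 had 42.8, 50.6 and 43.8 in 1C and 24.7, 23.04 and 21.6 in 32C, under the fold limit (log2 change -0.95 ± 0.17, adjusted p = 0.00054).

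Water channels were a small family with large changes. Of 17 tested aquaporins, 8 rose and 3 fell (47.1% and 17.65%, median 1.16), against 12.5% and 8.52% of all genes. Of the 17, 1 passed the filter through 32C alone. The summed FPKM of the family was 209.9 to 302 in 1C and 1033 to 1334 in 32C. Of the plasma membrane channels, PIP3 rose from 46.5, 56.4 and 44.7 to 491, 629 and 492 (log2 change 3.42 ± 0.33, adjusted p = 1.89e-06). PIP1C rose from 15.3, 33.8 and 22.4 to 267, 305 and 228 (log2 change 3.49 ± 0.41, adjusted p = 1.45e-05). PIP1;4 rose from 2.0, 3.78 and 3.97 to 57.2, 89.02 and 51.1 (log2 change 3.97 ± 0.53, adjusted p = 4.56e-05).

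**Figure D5:**
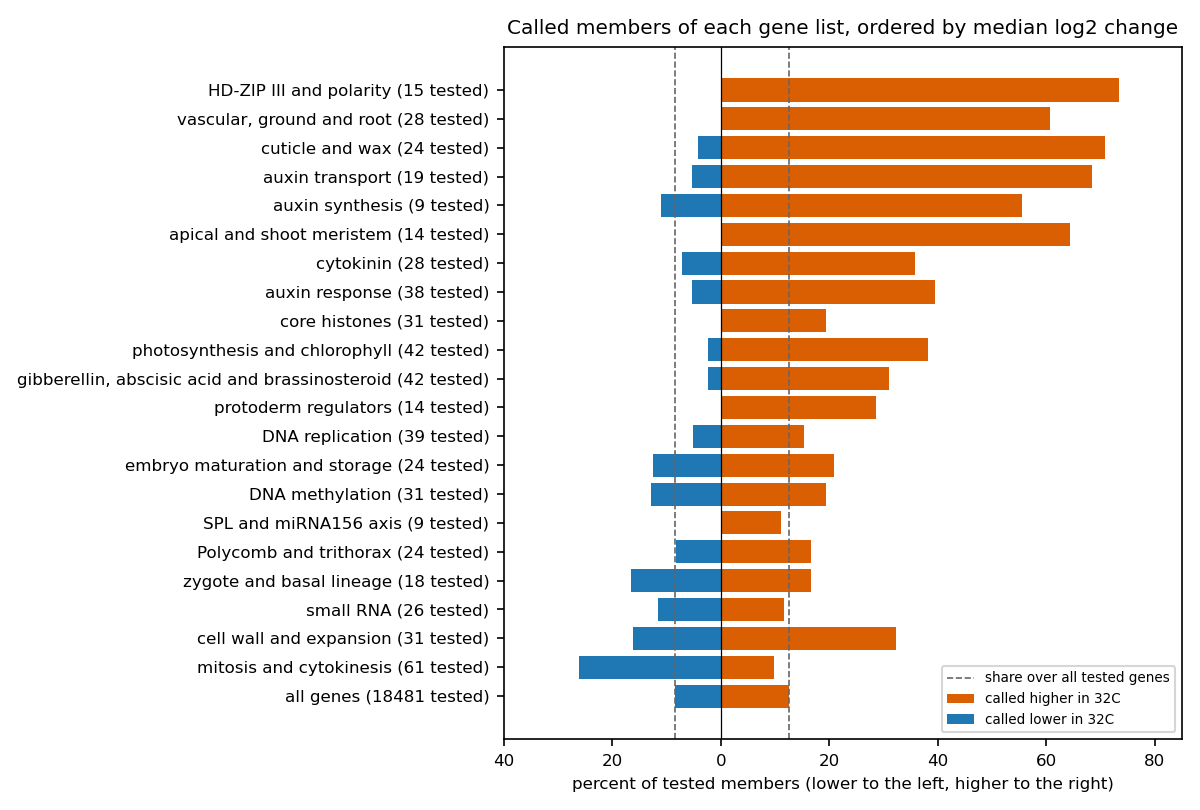
Percent of tested members called higher (orange, to the right) or lower (blue, to the left) in 32C for each gene list, ordered by median log2 change, with all 18481 tested genes at the bottom and dashed lines at their shares of 12.5% and 8.52%. HD-ZIP III and polarity, cuticle, auxin transport, apical and vascular lists reach over 60% to the right, and mitosis and cytokinesis reaches 26.2% to the left.

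Genes of the zygote and basal lineage, which act in the YODA pathway and the first asymmetric division, were balanced. Of 18 tested, 3 rose and 3 fell (16.7% each, median 0.00), against 12.5% and 8.52% of all genes, with 5 rises without 32C replicate 1. RKD4, an RWP-RK factor of the early embryo, had 1.54, 1.72 and 3.56 FPKM in 1C and was at 0 in all 3 libraries of 32C (adjusted p = 9.25e-05), after 464 ± 121 in Zy14 and 242 ± 15.7 in Zy24. HDG12, a homeobox gene, fell from 146, 172 and 201 to 74.5, 68.9 and 64.3 (log2 change -1.3 ± 0.18, adjusted p = 7.33e-05), and its relative HDG11 was not called (39.95, 34.9 and 31.8 in 1C, 26.8, 31.1 and 32.03 in 32C, log2 change -0.24 ± 0.31, adjusted p = 0.63). The receptor kinases ERL1 (8.26, 8.96 and 11.9 to 54.4, 62.3 and 66.6, log2 change 2.55 ± 0.45, adjusted p = 0.000619, lost with a pseudocount of 0.1) and ER (2.94, 6.36 and 6.26 to 13.6, 15.6 and 18.4, log2 change 1.5 ± 0.26, adjusted p = 0.000505) rose. WOX9 was lower in each 32C library than in any 1C library and was not called (log2 change -1.0 ± 0.48, adjusted p = 0.139) except in the fit of 6 libraries (log2 change -1.0, adjusted p = 0.000192). WOX8 (log2 change 0.00 ± 0.28, adjusted p = 1) and the kinase MPK6 (log2 change 0.23 ± 0.34, adjusted p = 0.679) were not called. The kinase YDA had 38.9, 34.1 and 32.3 in 1C and 14.9, 19.2 and 22.4 in 32C (log2 change -0.87 ± 0.27, adjusted p = 0.023). It was called without 32C replicate 3 (log2 change -1.0, adjusted p = 0.0281).

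Families of translation and protein turnover had lower shares of rises and of falls than the 12.5% and 8.52% of all genes. Of 313 cytosolic ribosomal protein genes tested, 4 rose and 17 fell (1.28% and 5.43%, median 0.02), with 2 rises without 1C replicate 1, where 11.2% of all genes rose. Of the 313, 1 passed the filter through 32C alone. Their summed FPKM was 138192 to 141141 in 1C and 152948 to 154960.4 in 32C. The third of the largest changes in this family, after AT5G09500 and AT5G40040, was AT4G16030, with 11.04, 12.6 and 14.6 in 1C and 0 in all 3 libraries of 32C (adjusted p = 1.33e-07), and paralogues of this kind may share reads. Translation initiation factors gave 4 rises and 4 falls among 61 (6.56% each), with eIF6B falling from 67.3, 86.8 and 75.01 to 8.87, 2.87 and 3.76 (log2 change -3.76 ± 0.45, adjusted p = 1.67e-05). Aminoacyl-tRNA synthetases gave 2 and 1 among 54 (3.70% and 1.85%), with 0 rises without any 1 library other than 1C replicate 2 and 2 falls without any 1 library of 1C. Proteasome subunits gave 0 and 2 among 43 (0% and 4.65%), with 1 fall without 1C replicate 2, 1C replicate 3 or 32C replicate 3.

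Families of RNA and ubiquitin-related proteins had fewer rises than falls as deposited. Pentatricopeptide and tetratricopeptide repeat proteins, many of which process organelle transcripts, gave 16 rises and 42 falls among 515 (median -0.20). The falls were 8.155% of the family, close to the 8.52% of all genes, and the rises 3.11% against 12.5%. The counts were 7 and 77 after quantile normalization, where 11.3% and 10.9% of all genes rose and fell, and 23 and 28 after median of ratios scaling, where the shares were 13.9% and 7.15%. There were 27 falls without 32C replicate 1 and 25 without 32C replicate 2, where 7.32% and 6.92% of all genes fell. RNA helicases gave 4 and 12 among 67 (5.97% and 17.9%, median -0.45), with 2 rises without 1C replicate 2 or any 1 library of 32C, where 10.3% to 11.9% of all genes rose. F-box proteins, the substrate receptors of ubiquitin ligases, gave 23 and 56 among 293 (7.85% and 19.1%, median -0.20), and 145 of the 477 matched were at 0 in all 6 libraries.

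Heat shock proteins separated the 32C libraries from each other. Their summed FPKM was 10266, 10302 and 10471 in 1C and 22756, 16643 and 10243 in 32C, so 32C replicate 3 was at the level of 1C and replicate 1 far above it. Of 119 tested genes, 15 rose and 2 fell (12.6% and 1.68%), against 12.5% and 8.52% of all genes, so the share of rises was that of all genes. Without 32C replicate 1 the counts were 10 and 1, where 11.1% of all genes rose. There was also 1 fall without 1C replicate 2, 32C replicate 2 or 32C replicate 3. The small heat shock protein AT5G37670 had 3.83, 8.02 and 5.5 in 1C and 106, 51.3 and 23.1 in 32C (log2 change 2.97 ± 0.55, adjusted p = 0.000885). It followed the order of the family sum within 32C.

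Markers of neighbouring tissues were examined for each stage. Of 19 central cell and endosperm markers, 15 were under FPKM 1 in all 6 libraries and 7, including ZOU, MEA and YUC10, were at 0, none of the 7 tested was called, and the list summed to 22.97 to 25.4 in 1C and 21.5 to 23.5 in 32C. Of 20 seed coat and integument markers, 10, including BAN, TT2, TT8 and INO, were at 0, and the sum was 14.1 to 27.8 in 1C and 40.8 to 42.01 in 32C. Among the 5 tested of them, KAN4 (ATS), which also belongs to the polarity genes above, and the MADS gene STK rose, STK from 0, 0.47 and 0.83 to 14.2, 15.1 and 16.3 (log2 change 3.54 ± 0.25, adjusted p = 5.59e-08). Of the 5, 2 passed the filter through 32C alone, STK among them. SHP2 fell from 7.49, 0 and 2.56 to 0.05, 0.16 and 0 (log2 change -1.54 ± 0.54, adjusted p = 0.0456), a call lost without either 1C replicate 1 (log2 change -0.82, adjusted p = 0.207) or 1C replicate 3 (log2 change -1.45, adjusted p = 0.124) and without any 1 of the 32C libraries. The part of seed coat tissue in the results was otherwise not tested.

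Egg cell transcripts were low at both stages. Of 9 egg cell markers tested, 2 fell (median 0). EC1.1, at 25958 ± 5779.6 FPKM in EC, went from 5.57, 1.24 and 3.73 in 1C to 0 in all 3 libraries of 32C (adjusted p = 0.000233). EC1.5 fell from 13.03, 21.2 and 22.97 to 2.08, 2.04 and 0.45 (log2 change -3.03 ± 0.40, adjusted p = 4.26e-05). EC1.2, EC1.3 and ECS2 were at 0 in all 6 libraries. The list summed to 36.97 to 41.8 in 1C and 7.73 to 17.5 in 32C. Of 15 synergid, sperm and pollen markers, 6 were at 0 in all 6 libraries, including MYB98 and DUO1, and of 7 tested the sperm gene GEX2 fell (3.7, 6.15 and 6.93 to 0, 1.16 and 1.02, log2 change -1.98 ± 0.31, adjusted p = 0.000207), with list sums of 15.3 to 15.9 in 1C and 4.16 to 9.04 in 32C.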

How the data were processed

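mRNA captured on beads was amplified with a SMART-Seq low-input kit, per the labels' protocols. The deposited values are FPKM made by the authors, 1 table per library, and TopHat2, RSEM and the TAIR10 build are listed in the submitters' processing notes, without versions or roles. Tables list only values above 0, so an absent gene was taken as 0. Of 23595 genes listed in the 15 Col libraries, 23506 had a symbol or product description in the later RefSeq release TAIR10.1, used for names only. The 18481 genes that reached FPKM 1 in 3 or more of the 15 libraries were fitted with limma 3.58.1 (R 4.3.3) on log2(FPKM + 1), with trended and robust empirical Bayes moderation and Benjamini-Hochberg adjustment over all of them. The pseudocount makes changes of low genes too small, and errors are ± SE for log2 changes. The script was tested on simulated data. Without counts, no counting interval is given.

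Members and gene lists were chosen with earlier results of these data known. Named genes were list members (called ones with the largest changes and known ones not called), the 15 largest rises and falls with a mean of at least 20 FPKM and no overlap, the top 3 of each family and the 10 highest genes of each stage. Other computing used Python 3.11.15, numpy 2.4.6, pandas 2.3.3, scipy 1.17.1 and matplotlib 3.10.9. The alternatives changed the scaling, pseudocount, filter, libraries fitted and replicate block, and left out each library. The 12 hybrid libraries were not analysed. One auxin transport gene is counted in its list but not reported here.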

Additional observations from a re-analysis of the deposited data

How the results depend on the processing

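The counts of rises and falls over all genes stayed within 1.5 times their reported values under the 14 alternatives run, with 1837 to 2576 rises and 1322 to 2012 falls over the scalings, pseudocount, filters and other designs, and 1899 to 2191 rises and 1278 to 1489 falls when 1 library of either stage was left out, the tested genes being kept. The gain in genes with FPKM of at least 1 was 506 to 1518 under other thresholds and scalings and 481 to 663 without 1 library. The switch counts depend on their limits: a high limit of FPKM 10 left 211 genes on and 23 off, and a low limit of 0.5 left 44 off. Leaving out 1 library gave 361 to 426 on and 85 to 102 off, since fewer libraries then have to meet the rule. With the replicate number as a block the fit gave 2308 rises and 1583 falls. Same-numbered libraries did not deviate together (correlations 0.0144, 0.0225 and 0.0249, under the limit of 0.1), so the numbers were not taken as pairs. Of 320 called genes that the naming rules admit, 259 kept their call in every alternative that gave a value and 61 lost it in at least 1, and none changed sign. Quantile normalization gave 51.0% of calls higher against 59.5%. Without counts, whether a gene listed at 0 was below detection cannot be told, and 32C was sequenced slightly less deeply than 1C by the estimate above.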

Other observations

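Families were also counted by product description, and their members include genes of the lists above, so the counts are not independent of those. Of all tested genes, 12.5% rose and 8.52% fell. Among 125 tested genes with a homeobox or homeodomain-like description, 34 rose and 8 fell (27.2% and 6.4%), and 13 of the tested members passed the filter on low values through 32C libraries alone. MEE3, at 0 in 1C, had 65.4, 85.5 and 106 FPKM in 32C (adjusted p = 1.56e-10), and HB30, also at 0, had 13.7, 19.4 and 23.2 (adjusted p = 3.97e-09). MYB genes gave 16 rises and 6 falls among 70 (22.9% and 8.57%), of which 6 passed through 32C alone, and MYB94, an activator of wax synthesis, rose from 1.53, 1.08 and 2.63 to 109, 93.05 and 114 (log2 change 5.31 ± 0.27, adjusted p = 2.31e-09). WRKY genes gave 13 rises and 2 falls among 38 (34.2% and 5.26%), with WRKY17 going from 9.11, 8.84 and 3.78 to 103, 128 and 103 (log2 change 3.84 ± 0.32, adjusted p = 3.97e-07) and WRKY21 from 6.63, 10.2 and 5.2 to 72.9, 77.9 and 78.2 (log2 change 3.25 ± 0.38, adjusted p = 1.47e-05). The counts for bHLH genes were 19 and 7 among 62 (30.6% and 11.3%), of which 7 passed through 32C alone, and for ERF and AP2 genes 14 and 2 among 53 (26.4% and 3.77%). NAC genes gave 6 and 5 among 36 (16.7% and 13.9%) and MADS genes 5 and 4 among 38 (13.2% and 10.5%). Of the MADS genes 3 passed through 32C alone, and 1 each of the WRKY, the ERF and AP2, and the NAC genes.

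In the same order, receptor-like kinases gave 37 rises and 13 falls among 171 (21.6% and 7.6%), of which 7 passed through 32C alone. Among the rises was the receptor kinase-related gene AT2G31620, at 0 in 1C and 89.6, 77.4 and 73.8 FPKM in 32C (adjusted p = 7.04e-11). The description search for defensin-like and cysteine-rich proteins, which also takes cysteine-rich kinases, gave 28 and 4 among 74 (37.8% and 5.41%), of which 9 passed through 32C alone. Lipid transfer proteins gave 12 and 3 among 43 (27.9% and 6.98%), of which 3 passed through 32C alone. GDSL lipases gave 7 and 4 among 37 (18.9% and 10.8%), of which 2 passed through 32C alone. Peroxidases gave 3 and 2 among 17 (17.6% and 11.8%), where AT4G31760 rose from 21.3, 5.57 and 10.99 to 352, 344 and 353 (log2 change 4.86 ± 0.37, adjusted p = 1.56e-07). Arabinogalactan proteins gave 8 and 6 among 37 (21.6% and 16.2%). SAUR genes, a family of early auxin-responsive proteins, gave 4 and 3 among 21 (19.05% and 14.3%), where AT1G75580 rose from 1.93, 2.31 and 0 to 46.7, 40.3 and 58.4 (log2 change 4.52 ± 0.45, adjusted p = 2.61e-06).

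Several counts of falls in these families moved by over 1.5 times when 1 library was left out. Receptor-like kinases had 8 without 1C replicate 3 or 32C replicate 1, bHLH genes 4 without 1C replicate 3, 32C replicate 1 or 32C replicate 2, ERF and AP2 genes 4 without 1C replicate 3, and MADS genes 2 without 32C replicate 1. WRKY genes had 0 without 1C replicate 1 and 1 without 1C replicate 3 or any 1 library of 32C. SAUR genes had 1 without 32C replicate 3, and peroxidases 1 without any 1 library other than 1C replicate 3.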
